A study of Sus scrofa with 12 samples.

Results

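The hedgehog pathway was followed in the uterus of newborn pigs through its 3 ligands (IHH, SHH and DHH), the receptor PTCH1, the transducer SMO, the secreted inhibitor HHIP and the transcription factors GLI1, GLI2 and GLI3. Members were taken from the authors' normalized expression table by gene symbol, or by gene description where the table gives only a placeholder name. Of 9 genes looked for, 8 were found, in 11 of the table's 20390 entries, because GLI1 is held in 2 entries and GLI3 in 3. DHH was not analysed here. All 11 entries exceeded 1 in at least 4 libraries and were tested, SHH in exactly 4.

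The 12 libraries were made from total RNA of whole uteri of crossbred pigs (Landrace, Yorkshire, Duroc and Hampshire), 4 in each of 3 groups. PND0 uteri were collected within 1 h of birth, before any feeding by the protocol. PND2N piglets nursed freely for 48 h. PND2R piglets received a commercial replacer for the same time. Day 2 uteri were taken at an age of 50 h. The series asks how age and nursing affect the uterine transcriptome. All 3 groups share the breed mix, the tissue and the library kit. No label says whether litters or sows were shared, so p-values measure the spread between these 12 libraries.

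Hedgehog ligands are secreted proteins that bind PTCH1 on neighbouring cells. Unbound PTCH1 holds SMO inactive, and ligand binding releases SMO, which then acts through the primary cilium on the GLI factors. GLI1 is an activator and a direct target of the pathway, GLI2 is mainly an activator, and GLI3 is processed into a repressor when ligand is absent. PTCH1, HHIP and GLI1 are themselves induced by hedgehog signalling, so their RNA is widely read as an output. In the adult uterus IHH comes from the epithelium, is induced by progesterone, and acts on PTCH1 in the stroma below. In many tubular organs epithelial hedgehog ligands act on surrounding mesenchyme and smooth muscle during development.

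The values are normalized, linear and never below 1, which is the table's lowest entry, held by between 17.8% and 22.1% of genes in each library. They summed to between 26534074 and 29544130 per library. The read depth behind a value is unknown. Epithelial markers were present in every library, with KRT8 between 11100 and 51645. The newborn group was uneven. The summed level of 19 epithelial markers was 181718 and 182679 in PND0 1 and 2 and 57838 and 50373 in PND0 3 and 4. It lay between 96463 and 149436 in PND2N and between 123608 and 150937 in PND2R. Smooth muscle markers were uneven in the day 2 groups, where DES, the muscle intermediate filament gene, was highest in PND2N 1, PND2R 2 and PND2R 3. That split was not confined to muscle genes. Among the day 2 libraries the same ones were lowest in endothelial VWF, stromal COL1A2 and epithelial EHF, and highest in endothelial ENG. Because these are bulk samples, fewer cells of a type and less RNA per cell cannot be told apart.

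Among the ligands, IHH was low and variable, and neither day 2 group differed from birth beyond its spread. IHH lies on chromosome 15 at 129279301 to 129285669, minus strand, in Sscrofa10.2, the build of all coordinates here. In the newborn libraries its normalized value was 26.5, 17.1, 3.04 and 5.89. In PND2N it was 19.4, 1.00, 11.8 and 8.36, and in PND2R it was 52.1, 6.20, 6.60 and 50.6. The 2 highest libraries were both in PND2R, the only library at the lowest entry of the table was PND2N 2, and all 3 groups overlapped.

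The mean of IHH was 13.1 ± 10.8 in PND0, 10.1 ± 7.62 in PND2N and 28.9 ± 25.9 in PND2R (SD, n = 4 each). On the log2(value + 1) scale, on which all changes below are given, IHH differed from PND0 by -0.38 ± 0.92 (SE) in PND2N (limma, Benjamini-Hochberg adjusted p = 0.816). In PND2R the difference was 0.86 ± 0.92 (limma, adjusted p = 0.509). The 95% intervals, -2.38 to 1.63 and -1.15 to 2.86, leave room for changes of more than 1 log2 unit in either direction. Within the newborn group the 2 libraries low in epithelial markers were also the 2 lowest in IHH, and the part of this in the comparison was not tested.

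IHH was therefore also set against the epithelial markers in the same library, as its log2(value + 1) less the mean of the 19 markers. That difference was -7.22, -7.88, -8.09 and -7.48 in the newborn libraries, so their spread narrowed to -7.67 ± 0.39 (SD, n = 4). It was -8.23 ± 1.31 in PND2N, from -9.98 to -6.90. In PND2R it was -7.11 ± 1.50, with PND2R 1 and 4 at -5.82 and -5.81 and PND2R 2 and 3 at -8.33 and -8.49. The PND2R libraries thus fell into a pair above and a pair below all 4 newborn libraries. PND2R 2 and 3 were also the PND2R libraries highest in DES. Some markers within the reference split the same way, among them EHF, ESRP1 and MAL2. EHF was 15731 and 13404 in PND2R 1 and 4, and 5157 and 6139 in PND2R 2 and 3. KRT18, CLDN3, CLDN4 and ST14 went the other way. The part of this in the IHH measure was not tested. Neither group differed from PND0 by this measure (exact permutation test, two-sided, p = 0.543 for PND2N and p = 0.486 for PND2R). Nursed and replacer-fed piglets did not differ by it either (exact permutation p = 0.257). The smallest p such a test of 4 against 4 can give is 0.0286. Over the 6 tests run on IHH and SHH the Benjamini-Hochberg adjusted values ranged from 0.814 to 0.943. SHH stood at 1 in most libraries, where its difference follows the markers alone, so its tests say little about that ligand.

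SHH, the ligand of many budding epithelia, was at or near the limit of measurement. Its entry is named LOC100512749, described as sonic hedgehog protein-like, at chromosome 18, 2430924 to 2445923, minus strand. It stood at 1 in 8 of 12 libraries. The other 4 were PND0 3 at 1.52, PND2N 3 and 4 at 2.35 and 1.67, and PND2R 2 at 1.77. No group stood apart, and the log2 differences from birth were 0.21 in PND2N and 0.03 in PND2R (limma, adjusted p = 0.627 and 0.936).

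**Figure D1:**
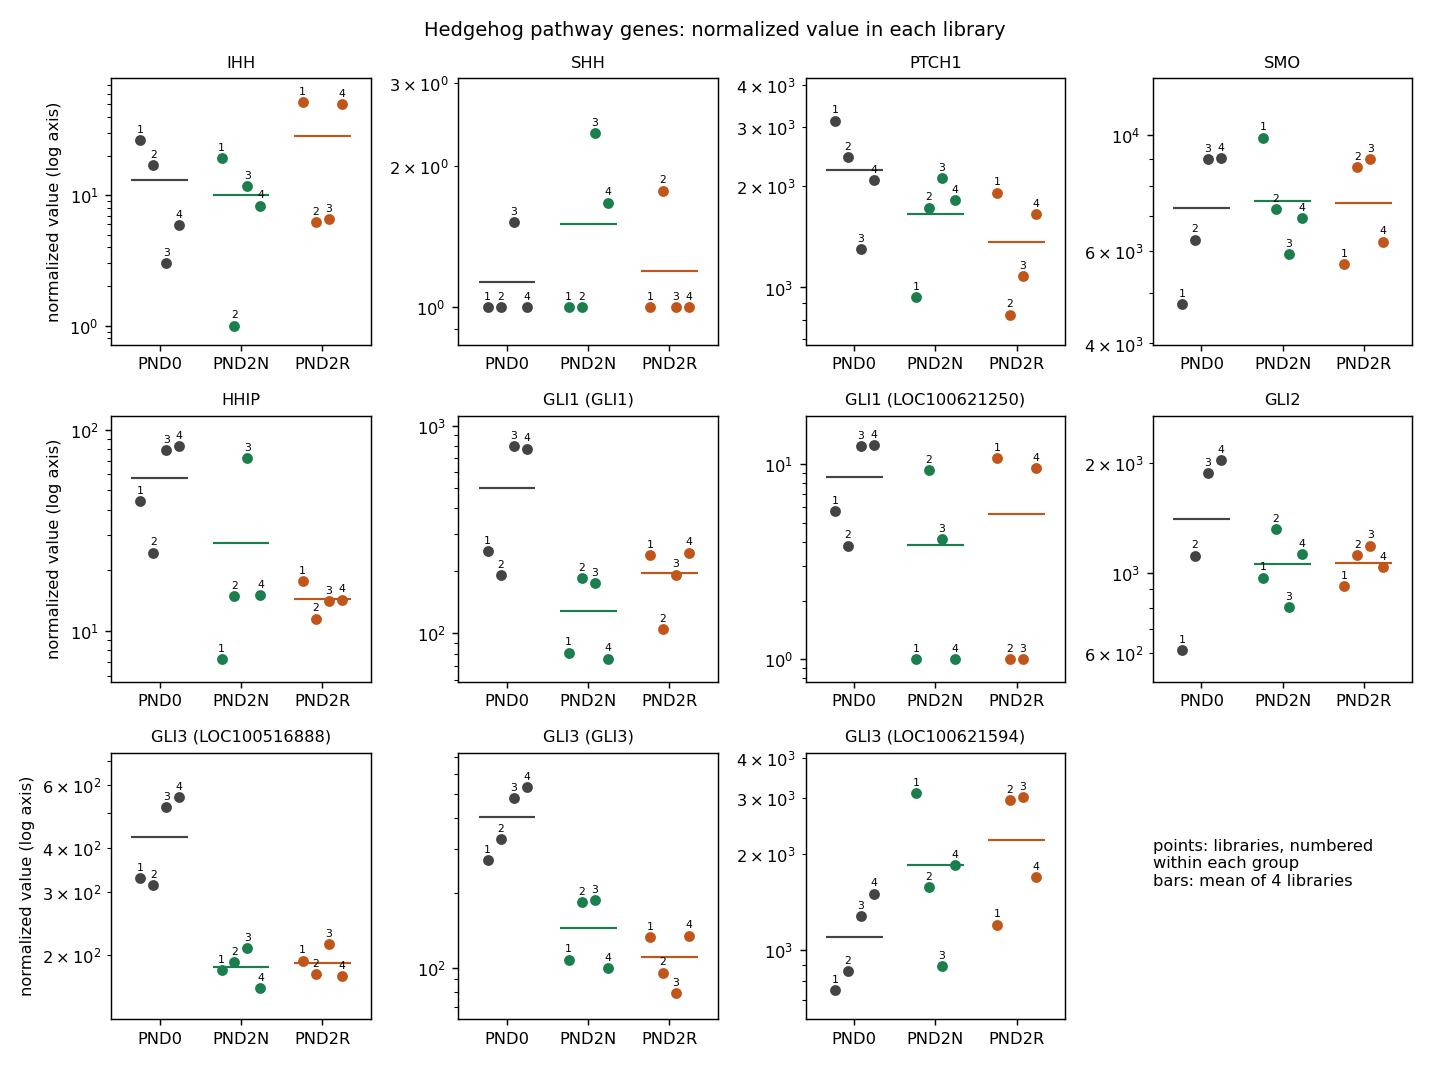
Normalized value of each of the 11 hedgehog entries (log axis) in the 12 libraries, grouped as PND0, PND2N and PND2R, 1 point per library with the group mean as a bar. The day 2 points of GLI3 (LOC100516888) and GLI3 (GLI3) lie wholly below the newborn points, SMO is level, and SHH sits at 1 in 8 of 12 libraries.

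The receptor PTCH1 was measured well above the lowest entry in every library and was lower on average at day 2 without passing the test. It lies on chromosome 10 at 32273933 to 32447866, plus strand. Its newborn values were 3136, 2442, 1302 and 2085. In PND2N they were 938, 1729.6, 2114 and 1822, and in PND2R 1916, 830.5, 1083 and 1650.0. The 2 highest libraries were newborn and the lowest was PND2R 2, but PND0 3 and 4 lay within the day 2 range, so the groups overlapped.

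The mean of PTCH1 was 2241 ± 763 in PND0, 1651 ± 503 in PND2N and 1369.8 ± 499.9 in PND2R (SD, n = 4 each). Its log2 difference from birth was -0.43 ± 0.34 (SE) in PND2N (limma, adjusted p = 0.433). The difference was -0.72 ± 0.34 in PND2R (limma, adjusted p = 0.149), with a 95% interval of -1.46 to 0.03.

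SMO, the transducer that PTCH1 restrains, was level across the groups. It lies on chromosome 18 at 20843125 to 20871371, minus strand. Newborn values were 4748, 6312, 8977 and 9012. PND2N values were 9877, 7227, 5914 and 6947, and PND2R values were 5666, 8689, 8988 and 6256. Each group covered nearly the same range. The log2 difference from birth was 0.07 (95% interval -0.46 to 0.60) in PND2N and 0.05 (-0.48 to 0.58) in PND2R (limma, adjusted p = 0.878 and 0.900). All 28247 bases of SMO lie within the interval of TNPO3 on the opposite strand, and strand use in counting is not given in the sources used here. Only gene intervals were compared, not exons, so whether reads of the 2 genes were mixed was not established. TNPO3 was itself steady, between 3130.2 and 3934.

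HHIP, a membrane-anchored and secreted protein that binds hedgehog ligands and limits their reach, had lower day 2 means that missed the threshold. It lies on chromosome 8 at 87828541 to 87844553, minus strand. Newborn values were 44.2, 24.5, 78.9 and 83.1. PND2N values were 7.26, 14.9, 72.0 and 15.1, and PND2R values were 17.7, 11.5, 14.1 and 14.3. All 4 PND2R libraries were below all 4 newborn libraries, as were 3 of 4 PND2N libraries, while PND2N 3 lay among the newborns.

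The log2 difference of HHIP from birth was -1.79 ± 0.61 (SE) in PND2R (limma, adjusted p = 0.0638) and -1.41 ± 0.61 in PND2N (adjusted p = 0.185). For the mean of both day 2 groups against birth it was -1.60 ± 0.53 (adjusted p = 0.0546). These values turned on PND2N 3. Without that library the difference passed the threshold in PND2N (-2.04, adjusted p = 0.0438), in PND2R (adjusted p = 0.0254) and in the mean of both (-1.91, adjusted p = 0.0113). Without PND0 2 it passed in PND2R (adjusted p = 0.0482) and in the mean of both (adjusted p = 0.0415), and without PND2N 1 in PND2R (adjusted p = 0.0381). It also passed in PND2R when PND2N was left out of the fit (-1.79, adjusted p = 0.0334). Exact permutation tests of HHIP against birth, not adjusted, gave p = 0.0286 in PND2R, 0.143 in PND2N and 0.0121 in the mean of both.

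GLI1, the GLI factor whose transcription depends most directly on hedgehog input, had lower day 2 means. The entry named GLI1 lies on chromosome 5 at 25362943 to 25367789, minus strand. Its newborn values were 248, 191, 794 and 775. In PND2N they were 80.9, 184, 174 and 75.7, and in PND2R 238, 105, 192 and 245. PND0 3 and 4 were above every other library by a wide margin. All PND2N libraries lay below all newborn libraries, by a narrow gap from 191 to 184, and PND2R overlapped PND0.

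The mean of GLI1 was 502 ± 327 in PND0, 129 ± 58.2 in PND2N and 195 ± 64.2 in PND2R (SD, n = 4 each). Its log2 difference from birth was -1.80 ± 0.52 (SE) in PND2N (limma, adjusted p = 0.0763) and -1.15 ± 0.52 in PND2R (adjusted p = 0.131). Exact permutation tests of the same differences, not adjusted, gave p = 0.0286 in PND2N and 0.143 in PND2R. Taken over both day 2 groups GLI1 fell by 1.48 ± 0.45 log2 units (limma, adjusted p = 0.0432). That call rested on the 2 high newborn libraries: without PND0 3 and 4 the difference was -0.55 (adjusted p = 0.423). It was also lost without any of PND0 3, PND0 4, PND2N 1, PND2N 4, PND2R 2, PND2R 3 or PND2R 4 alone, over which adjusted p reached 0.143.

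A second GLI1 entry, LOC100621250, described as zinc finger protein GLI1-like, lies beside it on chromosome 5 at 25332312 to 25338465 on the same strand. It was low, from 1 to 12.5, stood at 1 in 4 day 2 libraries, and was highest in PND0 3 and 4 at 12.4 and 12.5. With the entries summed, GLI1 differed from birth by -1.79 in PND2N and -1.15 in PND2R (limma, adjusted p = 0.0791 and 0.136).

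GLI2, the main activator, did not pass the test in any comparison. It lies on chromosome 15 at 34119235 to 34315390, minus strand. Newborn values were 612, 1112, 1871 and 2031, so this group spanned more than the other groups together. PND2N values were 968, 1319, 803 and 1126, and PND2R values 916, 1115, 1185 and 1037. All 8 day 2 libraries lay between PND0 1 and PND0 3. The log2 differences from birth were -0.29 ± 0.33 (SE) in PND2N and -0.26 ± 0.33 in PND2R (limma, adjusted p = 0.582 and 0.575). Without PND0 3 and 4 both turned positive, at 0.33 and 0.36.

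GLI3, the main repressor of the family, gave the clearest differences, but its entries did not agree. The annotation holds it in 3 entries on chromosome 18. Of these 2 fell, and LOC100621594 had higher day 2 means that did not pass the test. LOC100516888 spans 56686178 to 56797755 on the minus strand and carries the gene identifier that RefSeq gives to GLI3 in the later assembly Sscrofa11.1. The entry named GLI3 spans 56843963 to 56848763 on the plus strand. LOC100621594, described as transcriptional activator GLI3-like, spans 56901505 to 56934552 on the plus strand. The identifiers of the last 2 were not matched in the RefSeq table used here.

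LOC100516888 stood at 328, 314, 520.1 and 556 in the newborn libraries. It was 181, 190.2, 208 and 162 in PND2N and 193, 177, 215 and 174 in PND2R. Every day 2 library lay below every newborn library, and the day 2 spread was narrow, with means of 185 ± 19.4 in PND2N and 189 ± 18.8 in PND2R against 429 ± 126 in PND0 (SD, n = 4 each). It fell by 1.17 ± 0.24 log2 units (SE) in PND2N (limma, adjusted p = 0.0303) and by 1.13 ± 0.24 in PND2R (adjusted p = 0.0163).

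The entry named GLI3 stood at 269.9, 329, 479 and 530.3 in the newborn libraries. It was 108, 184, 187 and 99.7 in PND2N and 133, 95.8, 79.1 and 135 in PND2R. Again no day 2 library reached the lowest newborn. It fell by 1.47 ± 0.33 log2 units (SE) in PND2N (limma, adjusted p = 0.0363) and by 1.84 ± 0.33 in PND2R (adjusted p = 0.00937).

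LOC100621594 went the other way. It stood at 752, 861, 1277 and 1504 in the newborn libraries, at 3103, 1575, 894 and 1848 in PND2N and at 1204, 2960.2, 3027 and 1697 in PND2R. PND2N 1, PND2R 2 and PND2R 3, the 3 libraries highest in DES, were also the 3 highest here, and the groups overlapped. Its log2 difference from birth was 0.67 ± 0.40 (SE) in PND2N and 0.97 ± 0.40 in PND2R (limma, adjusted p = 0.307 and 0.104), so it did not pass in either group. Without PND2R 1 it passed in PND2R (1.23, adjusted p = 0.0493), and without PND2N 3 in the mean of both day 2 groups (0.97, adjusted p = 0.0446).

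The larger LOC100621594 values govern the sum of the 3 entries, which was 1930.1 ± 598 in PND0, 2185 ± 879 in PND2N and 2522 ± 894 in PND2R (SD, n = 4 each). Summed, GLI3 differed from birth by 0.15 in PND2N and 0.36 in PND2R (limma, adjusted p = 0.803 and 0.440), so the fall seen in the first 2 entries is not a statement about the sum. Which part of the GLI3 transcript each entry covers was not established here.

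The ratio of LOC100621594 to LOC100516888 within a library does not depend on scaling if all genes of a library were scaled by a common factor. Whether they were is not known here. This ratio was chosen after the values were seen and is given without a test. It was 2.29, 2.75, 2.46 and 2.71 in the newborn libraries, a range so narrow that PND0 3 and 4 did not stand apart from PND0 1 and 2. It was 17.1, 8.28, 4.29 and 11.4 in PND2N and 6.25, 16.8, 14.1 and 9.77 in PND2R. All 8 day 2 libraries were above all 4 newborn libraries. Against the entry named GLI3, the ratio of LOC100621594 was 2.62 to 2.84 at birth, 4.77 to 28.7 in PND2N and 9.06 to 38.3 in PND2R.

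Within the day 2 libraries the ratio moved with DES, though not with every smooth muscle marker. DES was 7460.1 in PND2N 3, where the ratio was lowest, and 40049 in PND2N 1, where it was highest, with PND2R 2 and 3 next in both. The median of 12 smooth muscle markers, relative to each gene's own mean, was -0.59 log2 units in PND2N 3 and 0.69 in PND2N 1. CALD1, SYNPO2 and SYNM went the other way, with CALD1 at 26668 in PND2N 3 and 18682 in PND2N 1. At birth DES was 8228, 11727, 7606 and 12625, so PND0 3 and PND2N 3 had similar DES and ratios of 2.46 and 4.29. VWF, COL1A2, EHF and ENG, which are not muscle markers, also set PND2N 1, PND2R 2 and PND2R 3 apart from the other day 2 libraries. The part of smooth muscle content, or of this wider split, in the ratio was not tested.

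**Figure D2:**
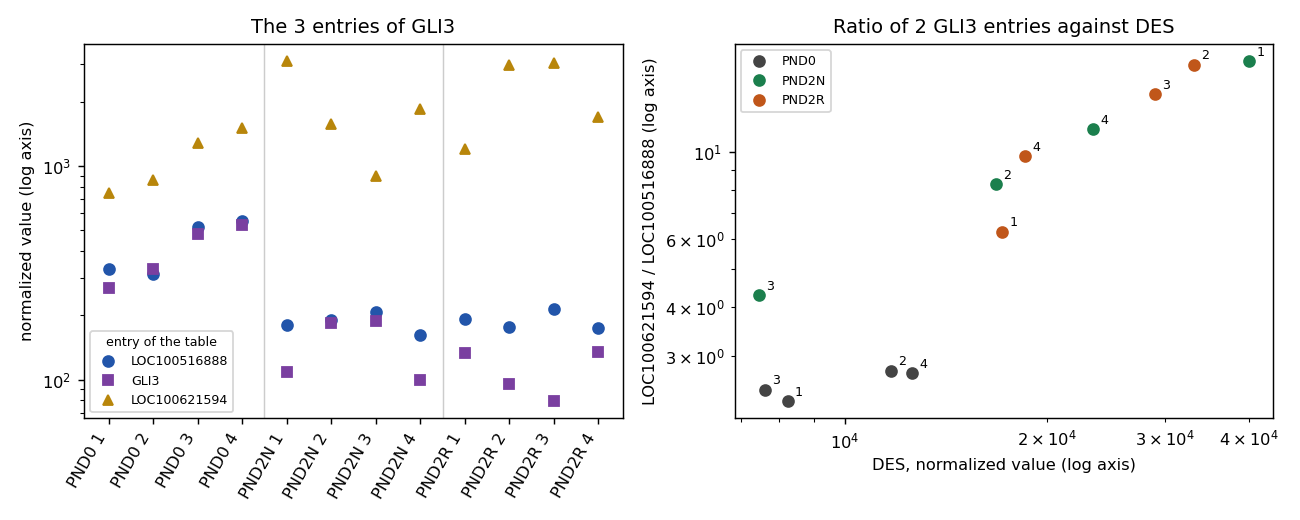
Normalized values of the 3 GLI3 entries in each library (log axis) and the ratio of LOC100621594 to LOC100516888. The newborn ratios sit between 2.29 and 2.75, and the 8 day 2 ratios lie between 4.29 and 17.1.

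Counted together, 2 of the 11 hedgehog entries were called in PND2N against PND0 at an adjusted p under 0.05, where 3.32% of all 16862 genes tested were called. Both were GLI3 entries and both fell, against 1.41% of all genes that fell. The median log2 change over the 11 entries was -0.43, beside -0.04 over all genes, with 8 entries negative and 3 positive. Libraries of PND2N and PND0 did not overlap for 3 entries, where 16% of all genes did not overlap.

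In PND2R against PND0 the same 2 GLI3 entries fell and none rose, where 15% of all genes were called and 7.31% fell. The median over the 11 entries was -0.72, beside -0.06 over all genes, with 7 entries negative. HHIP and the 2 GLI3 entries had no overlap between PND2R and PND0, where 28.3% of all genes had none. The count of 2 of 11 is thus near the share of all genes called in this comparison.

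For the mean of both day 2 groups against birth, 3 of 11 entries fell, the same GLI3 entries and GLI1, where 18.1% of all genes were called and 8.49% fell. The fall of LOC100516888 was 1.15 ± 0.21 log2 units (SE) and that of the entry named GLI3 was 1.65 ± 0.28 (limma, adjusted p = 0.00733 and 0.00602). These comparisons share the 4 newborn libraries, so they are not independent of each other. A test of any difference among the 3 groups called the same 2 GLI3 entries (limma F test, adjusted p = 0.0240 and 0.0192), where 6.43% of all genes were called.

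The GLI3 calls depended on which libraries were kept. Without PND2N 1, PND2R 2 and PND2R 3, the 3 libraries highest in DES, no entry was called in PND2N or PND2R against birth, although LOC100516888 was still -1.16 and -1.18 (limma, adjusted p = 0.0574 and 0.0782). The entry named GLI3 was then -1.35 and -1.53 (adjusted p = 0.0610 and 0.0675). Without PND0 3 and 4, LOC100516888 was -0.79 in PND2N and -0.76 in PND2R (adjusted p = 0.0863 and 0.0682), and the entry named GLI3 remained called in PND2R only. In the mean of both day 2 groups both GLI3 entries passed under each of these exclusions. Leaving out PND0 3, PND0 4, PND2N 1, PND2N 2, PND2N 4 or PND2R 4 alone ended both calls in PND2N. PND0 2 or PND2R 2 ended that of the entry named GLI3 there, and PND2R 2 also ended that of LOC100516888 in PND2R.

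**Figure D3:**
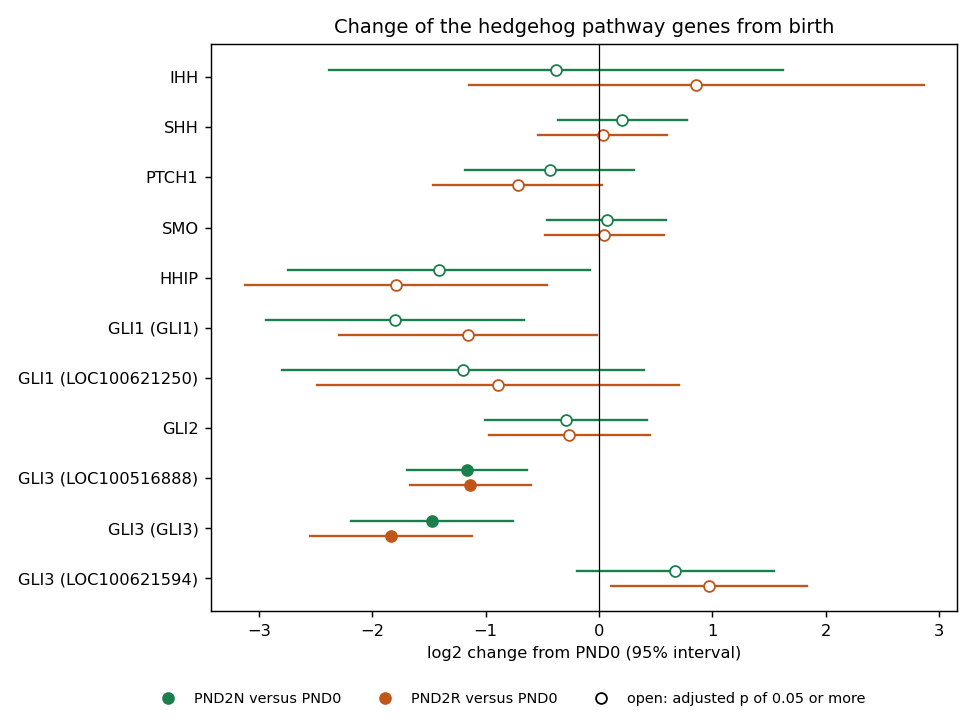
Log2 change of each hedgehog entry with its 95% interval (limma) for PND2N against PND0 and PND2R against PND0, filled where adjusted p is under 0.05. The intervals of the 2 falling GLI3 entries, of GLI1 (GLI1) and of HHIP lie below 0 in both comparisons. Only the points of those GLI3 entries are filled.

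How piglets were fed made no difference to these genes that could be detected. Between PND2N and PND2R no hedgehog entry was called, where 0.0119% of all genes were, and none had an unadjusted limma p under 0.05, where 2.68% did. No entry had non-overlapping groups, where 2.55% of all genes did, and exact permutation tests gave no entry a p under 0.05. IHH had the widest difference, -1.24 in PND2N against PND2R with a 95% interval of -3.24 to 0.77. For LOC100516888 the interval was -0.56 to 0.50 and for SMO -0.51 to 0.55. For GLI1 it was -1.78 to 0.50 and for HHIP -0.95 to 1.71. The intervals of IHH, PTCH1, both GLI1 entries, the GLI3 entries GLI3 and LOC100621594, and HHIP all reach beyond 1 log2 unit, so differences of that size remain possible for them.

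The newborn libraries were split for several members in the same way. PND0 3 and 4 were above PND0 1 and 2 in SMO, both GLI1 entries, GLI2, HHIP and all 3 GLI3 entries, and below them in IHH and PTCH1. The same 2 libraries were low in epithelial markers, with list medians of -1.10 and -1.31 log2 units relative to each gene's own mean, against 0.78 and 0.73 in PND0 1 and 2. Stromal markers were at 0.34 and 0.50 in PND0 3 and 4 against -0.15 and -0.13, endothelial markers at 0.80 and 0.41 against -0.03 and -0.16, and nerve and Schwann cell markers at 1.05 and 1.02. The part of tissue makeup in the values of these genes was not tested.

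**Figure D4:**
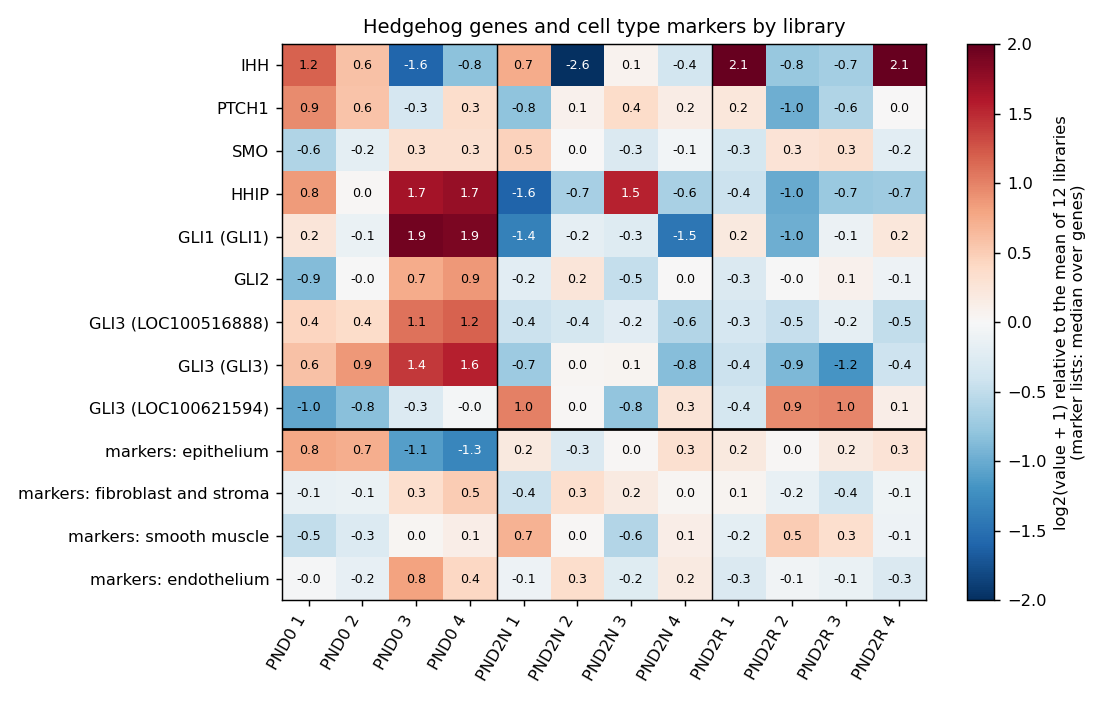
Log2(value + 1) of 9 hedgehog entries, leaving out SHH and GLI1 (LOC100621250), and the median of 4 cell type marker lists, relative to their own mean over the 12 libraries, by library. PND0 3 and 4 are high in GLI1, GLI2, HHIP and the GLI3 entries LOC100516888 and GLI3, near the mean in GLI3 (LOC100621594), and low in IHH and the epithelial markers.

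Genes that release hedgehog ligands from the cell or present them to PTCH1 were followed in a list of 14, of which 11 were tested. SCUBE2, which carries the lipid-modified ligand away from the producing cell, was 861 ± 171 in PND0, 428 ± 38.5 in PND2N and 305 ± 12.9 in PND2R (SD, n = 4 each). It fell, with log2 changes of -0.99 ± 0.19 in PND2N and -1.47 ± 0.19 in PND2R (SE; limma, adjusted p = 0.0241 and 0.00391), and its groups did not overlap. DISP2, a relative of the ligand exporter DISP1, has 2 entries, of which only the one with the higher mean was used. That entry was 53.9 ± 37.5, 10.4 ± 7.83 and 3.66 ± 2.55, and it fell in PND2R, with a log2 change of -3.44 ± 0.73 (SE; limma, adjusted p = 0.0155). In all, 1 of 11 fell in PND2N, where 1.41% of all genes fell, and 2 of 11 in PND2R, where 7.31% did, and none rose. The list's median was -0.65 in PND2N and -0.09 in PND2R. Without the 3 libraries highest in DES, and likewise without PND0 3 and 4, SCUBE2 was called in PND2R but not in PND2N and DISP2 in neither. The median in PND2R was 0.0043 without PND0 3 and 4 and -0.38 without the other 3.

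DISP1 and GPC3, a glypican that competes with PTCH1 for ligand, were -1.19 and -1.29 in PND2R and did not pass (limma, adjusted p = 0.0534 and 0.0695).

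Genes that relay the signal from SMO to the GLI factors showed falls and no rise. Of 24 tested, 1 fell in PND2N, where 1.41% of all genes fell. In PND2R 6 fell, where 7.31% of all genes did, among them EVC, GRK2, KIF7, MGRN1 and STK36. The median was -0.42 in PND2N and -0.51 in PND2R, with 20 and 21 of 24 negative. MGRN1, a ubiquitin ligase that helps remove SMO from the cell surface, was 3681 ± 563 at birth and 2433 ± 289 in PND2R (SD, n = 4 each). It fell in PND2R, with a log2 change of -0.59 (limma, adjusted p = 0.0240). KIF7, the ciliary kinesin that organises GLI proteins at the cilium tip, fell in PND2R with a change of -1.96 (adjusted p = 0.0307), and STK36, a fused-type kinase, with a change of -2.17 (adjusted p = 0.0276). Without the 3 libraries highest in DES, 1 gene of the list was called in PND2N and none in PND2R. Without PND0 3 and 4, 3 fell in PND2R, among them GRK2 and MGRN1.

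The primary cilium, on which the relay runs, showed no common direction. Of 37 genes tested, 3 rose in PND2N (ARL3, IFT57 and KIFAP3) and none fell, where 1.91% of all genes rose. In PND2R 7 rose and 3 fell, where 7.7% of all genes rose and 7.31% fell. ARL3, a small GTPase that unloads lipidated cargo in the cilium, rose by 1.14 in PND2N and 1.32 in PND2R (limma, adjusted p = 0.0327 and 0.0109). BBS1, a subunit of the ciliary cargo coat, fell in PND2R with a change of -1.89 (adjusted p = 0.0282). The median was 0.07 in PND2N and 0.04 in PND2R. Without the 3 libraries highest in DES, only ARL3 was called in PND2N and no gene in PND2R. Without PND0 3 and 4, only KIFAP3 was called in PND2N, and in PND2R 5 rose and none fell, so that BBS1 was no longer called.

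Genes that hedgehog signalling is known to induce in other tissues gave few calls. Of 21 tested, none was called in PND2N, where 2 had an unadjusted limma p under 0.05, and 1 fell in PND2R, where 7.31% of all genes fell. That gene was JAG2, a Notch ligand, at 686 ± 101 in PND0 and 250.0 ± 122 in PND2R (SD, n = 4 each), a log2 change of -1.57 (limma, adjusted p = 0.0134). Without the 3 libraries highest in DES it was not called in PND2R, and without PND0 3 and 4 it was still called there. JAG2 also fell in the mean of both day 2 groups, with a change of -1.105 (limma, adjusted p = 0.0217). That call held without the 3 libraries highest in DES and was lost without PND0 3 and 4. CCNE1, a cyclin of the G1 to S transition, was 0.79 in PND2N and 0.61 in PND2R (adjusted p = 0.0755 and 0.0848), and it rose by 0.70 in the mean of both day 2 groups (adjusted p = 0.0339), a call lost without the 3 libraries highest in DES. The median of the list was 0.04 in each comparison with birth.

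In the axis that links IHH to steroid receptors and stromal targets in the adult uterus, 19 genes were tested. ESR1, the oestrogen receptor, has 2 entries, of which only the one with the higher mean was used. That entry rose by 1.46 in PND2N and 1.27 in PND2R (limma, adjusted p = 0.0404 and 0.0286), from 2207 ± 1066 at birth to 5638 ± 1517 and 4887 ± 977 (SD, n = 4 each). WNT4, a secreted factor of the stroma and the female tract, rose in PND2R by 1.27 (adjusted p = 0.0323). KLF9, a progesterone receptor partner, fell, with changes of -1.77 and -2.13 (adjusted p = 0.0256 and 0.00701) from a mean of only 8.21, and all 4 PND2R libraries were at 1. PGR, the progesterone receptor that drives IHH in the adult, was 310.4 ± 67.6 in PND0, 104 ± 75.5 in PND2N and 78.9 ± 47.3 in PND2R. Its differences of -2.04 and -2.12 missed the threshold (adjusted p = 0.106 and 0.0542), although every day 2 library lay below every newborn library. For the mean of both day 2 groups PGR fell, with a change of -2.08 (limma, adjusted p = 0.0331), a call lost without PND0 3 and 4. In all, 1 of 19 rose and 1 fell in PND2N, where 1.91% of all genes rose and 1.41% fell. In PND2R 2 rose and 1 fell, where 7.7% of all genes rose and 7.31% fell, so these counts are near the shares of all genes. Without the 3 libraries highest in DES no gene of this list was called in PND2N or PND2R, and without PND0 3 and 4 KLF9 was not called in PND2N. Between PND2N and PND2R no gene of these 5 lists was called, and 0 to 2 genes of each list had an unadjusted limma p under 0.05.

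**Figure D5:**
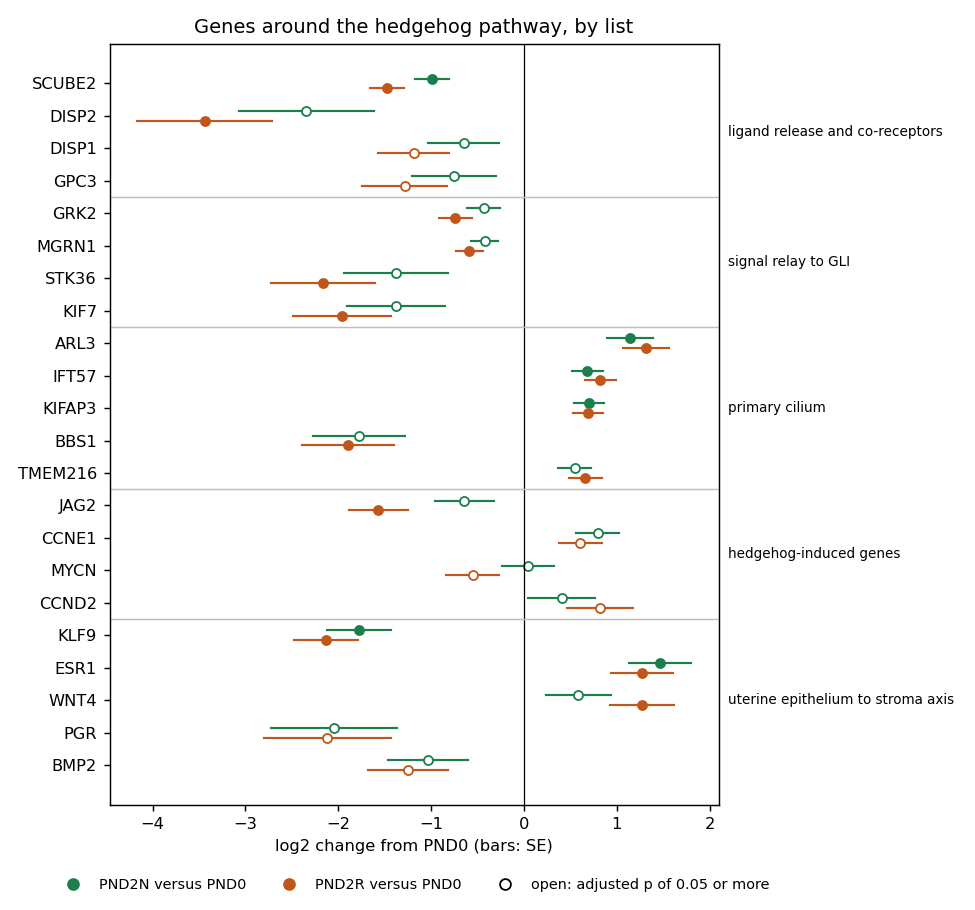
Log2 change in PND2N and PND2R against PND0 (limma) of named genes, chosen by the smallest F-test p, in each of the 5 wider hedgehog lists, filled where adjusted p is under 0.05. SCUBE2 fell in both comparisons, and ARL3 and the ESR1 entry used rose in both.

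Over the 12 libraries each gene's profile was taken as log2(value + 1) relative to its own mean. It was compared with those of 11117 genes that had a symbol and a mean of at least 10. The entry most like IHH was named TUBA1A in the table, with a root mean square difference of 0.59 log2 units against a spread of IHH itself of 1.36, followed by NOS1 at 0.66 and RHBG at 0.79. That TUBA1A entry lies 213 kb from IHH on chromosome 15, and its identifier was not matched to a symbol in RefSeq. PTCH1 was most like LPAR3, at 0.17 against its own spread of 0.55, then AMER1 at 0.18. GLI1 was most like ZDHHC17, at 0.21 against its own spread of 1.02, with MAPKAPK5 at 0.35. HHIP was most like ERC2, at 0.42 against 1.10, then SLIT2 at 0.44 and AKAP12 at 0.47. None of the 5 genes most like each of these was another hedgehog member. SHH and the entries LOC100621250 and LOC100621594 could not appear there, for want of a symbol or a high enough mean.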

How the data were processed

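RNA was sequenced from 12 uteri, 4 per group. The deposited values are a normalized signal made by the authors, not counts: they are linear, start at 1, and in each library 29.2% to 51.6% of low values were whole multiples of a common step within 0.02 steps, so no reads were recovered and no count test was run. Per the submitters' processing notes, bcl2fastq was used and coordinates follow Sscrofa10.2. How reads were aligned, counted, assigned to a strand and normalized is not given in the sources used here, and the depth behind a value is unknown.

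Entries were named by the table's symbol, checked against RefSeq by gene identifier. Where a gene of the wider lists or the marker lists had more than 1 entry, only the entry with the highest mean was used. The members and gene lists were chosen with earlier results of these data known, and of 274 listed genes 226 were matched and 219 tested. Genes above 1 in at least 4 libraries were kept (16862 of 20390). Values were tested as log2(value + 1) with limma 3.58.1 in R 4.3.3, in 1 fit over all 12 libraries with trended robust empirical Bayes, and p-values were adjusted by Benjamini-Hochberg over all 16862 genes at a threshold of 0.05. Fold changes of low genes are understated on this scale. IHH and SHH relative to the epithelial markers were tested by exact permutation, as was each hedgehog entry in each comparison, without adjustment over those entries. The limma fit was checked on simulated data with 200 changed genes. Those genes were drawn from above a set mean level, and the spread of each simulated gene was capped at the median spread. That setting is easier than these data, so the check does not cover low genes or genes of wide spread. In each wider list the up to 5 genes with the smallest F-test p were named, and for IHH, PTCH1, GLI1 and HHIP the most similar genes by root mean square difference. Other genes were named after their values were seen. Some genes that this rule selects are not reported here. The GSK3B entry was left out because its identifier belongs to TMEM39A. Alternatives changed the added value, the filter, the scaling, the fit and the libraries. Those without the 3 libraries highest in DES, without PND0 3 and 4, and with summed entries were chosen after seeing the data.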

Additional observations from a re-analysis of the deposited data

Results flagged for a closer look

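Among 105 groups of 4 libraries checked, 5 held a library whose distance from its nearest neighbour took more than 0.829 of the group's range, and chance gives about 1 in 20. HHIP stood at 72.0 in PND2N 3, above the other PND2N libraries. SHH stood at 1.52 in PND0 3 and at 1.77 in PND2R 2, where the rest of each group was at 1. GRK2, a kinase that phosphorylates SMO, was lowest in PND0 3 at 952, and KLF9 was highest of its group in PND2N 3 at 3.53. PND2N 3 also had the lowest DES of all libraries, at 7460.1. The part of tissue makeup in these values was not tested.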

How the results depend on the processing

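The count of 2 hedgehog entries called in PND2N against PND0 was 1 under quantile normalization and 0 when PND2R was left out of the fit, where few genes of any kind were called. It was 0 without the 3 libraries highest in DES and 0 without PND0 3 and 4. In PND2R the count of 2 became 0 and 1 under those exclusions and 3, with HHIP, when PND2N was left out of the fit, and the F-test count of 2 became 1 under quantile normalization and 0 under each exclusion. Leaving out 1 library at a time gave 0 to 3 calls in PND2N, 1 to 3 in PND2R, 2 to 5 for the mean of both day 2 groups, 0 to 3 by the F test and 0 for PND2N against PND2R. The cause was not tested.

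The GLI1 call for the mean of both day 2 groups was lost with no filter, quantile normalization and library quality weights. Quantile normalization moved the median of all genes by 0.11 log2 units in PND2R against PND0.

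Several uncalled differences changed sign. IHH in PND2N was 0.12 under quantile normalization. With library quality weights SHH in PND2R was -0.00356, and in PND2N against PND2R GLI2 was 0.12 and GLI3 (LOC100516888) 0.0185. Without the 3 libraries highest in DES, SMO was -0.073 in PND2N, -0.24 in PND2R and -0.15 in the mean of both, SHH -0.083 and GLI1 (LOC100621250) 0.35 in PND2R, and GLI2 0.12 and GLI3 (LOC100516888) 0.021 in PND2N against PND2R. Without PND0 3 and 4, GLI2 was 0.33, 0.36 and 0.34 in PND2N, PND2R and their mean, and IHH -0.18 in PND2R and -0.80 in the mean.

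Without 1 library, PND2N against PND2R ranged from -0.79 to 0.13 for GLI1 (LOC100621250), -0.15 to 0.092 for GLI2, -0.0903 to 0.0312 for GLI3 (LOC100516888), -0.59 to 0.0099 for GLI3 (LOC100621594), -0.25 to 0.80 for HHIP and -0.12 to 0.13 for SMO. Against PND0, IHH ranged from -0.85 to 0.31 in PND2N and -0.24 to 0.69 in the mean, SMO from -0.12 to 0.19, -0.14 to 0.17 and -0.13 to 0.18 in PND2N, PND2R and the mean, and SHH from -0.083 to 0.12 in PND2R.

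Relative to the epithelial markers, IHH in PND2R against PND0 was -0.00556 and SHH in PND2N -0.44 with KRT8, KRT18 and KRT19 as reference, and SHH in PND2N was -0.0951 with 5 added. Without 1 library IHH ranged from -1.003 to 0.024 in PND2N, 0.12 to 1.01 in PND2R and -1.57 to -0.53 between them, and SHH from -0.32 to 0.44, -0.61 to 0.15 and 0.17 to 0.49. No paired analysis was possible because the labels give no replicate numbers that groups share. Values near 1, as for SHH, lie at the limit of measurement.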
